A study of Mus musculus with 5 samples.

Results

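The S100 proteins are small calcium-binding proteins, and the 6 members described here (S100a8, S100a9, S100a4, S100a6, S100a10 and S100a11) were taken by gene symbol. All 6 were found among the 31053 genes of the count tables. The 5 single-cell RNA libraries came from bone marrow (BM) of BALB/c mice aged 4 to 8 weeks. Of these, 3 were whole BM after red cell lysis and dead cell removal: from naive mice, and from mice given 1 dose of cyclophosphamide (CTX, an alkylating chemotherapy drug that kills dividing cells) at 150 mg/kg into the peritoneum and killed on day 2 (D2 CTX) or day 7 (D7 CTX). The other 2 libraries were monocytes sorted as CD11b+Ly6Chi from naive mice and from CTX-treated mice. The labels give the whole BM cells as CD45+ and give no day for the sorted CTX library, which the study's methods place at day 7. Each whole BM library pooled cells of 3 mice, the number of mice behind the sorted libraries was not given, and each condition had 1 library. There are thus no replicates, no difference between conditions was tested, and all intervals (95%, exact Poisson or conditional on the 2 counts) cover counting error only.

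S100 proteins work mostly as dimers that change shape on binding calcium and then bind other proteins. S100A8 and S100A9 form calprotectin, an abundant protein of the neutrophil cytosol, which withholds zinc and manganese from microbes and, once released, signals through TLR4. S100A4 binds the heavy chain of non-muscle myosin. S100A6 (calcyclin) binds the calcyclin-binding protein Cacybp, S100A10 forms a stable complex with annexin A2 and does not itself respond to calcium, and S100A11 binds annexin A1.

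Cells with at least 200 genes and under 20% mitochondrial UMIs (unique molecular identifiers, 1 per captured transcript) were kept: 7104 naive, 6126 D2 CTX and 8290 D7 CTX BM cells, and 1891 naive and 2564 CTX sorted cells, with 22279758 to 67921924 UMIs a library. Median depth differed, at 3954 UMIs a cell in naive, 3034 on day 2 and 7190 on day 7, and at 10299 and 9694 in the sorted libraries, so levels are given as CPM (UMIs of a gene scaled to 1000000 UMIs of the class). Each cell was put in a class by marker lists that hold no S100 gene. The marker list of Ly6c2-high monocytes was passed by 95.5% and 93.6% of the sorted cells against 3.48% to 9.82% of whole BM cells, and Cd3e was at 0 in both sorted libraries. Library pairs shared 1 to 15 cell barcodes, at most 0.317% of the smaller library. The class cut-offs were set after the marker distributions had been seen, and many cells lay near them: within 25% of the cut there were 109, 114 and 130 cells for the Ly6c2-high monocyte list in naive, D2 CTX and D7 CTX BM, beside 577, 228 and 819 cells at or over it.

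All 6 genes lie on mouse chromosome 3 (GRCm38), in 2 groups. S100a4 (chr3:90603771-90606045), S100a6 (chr3:90612882-90624181), S100a8 (chr3:90668978-90670035) and S100a9 (chr3:90692632-90695721, the only 1 on the minus strand) lie together, and S100a11 (chr3:93520488-93526287) and S100a10 (chr3:93555080-93564643) lie beside each other further along. The promoters of S100a8 and S100a9, the pair whose levels tracked each other most closely, are shown with those of S100a4 and S100a6, their neighbours with other patterns. Each runs 5′ to 3′ on the gene's strand over 280 bases, from 250 before to 30 after the RefSeq start (GRCm38.p6), and capitals mark TATAAA and TTNNGNAA, a C/EBP-type motif.

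S100a8: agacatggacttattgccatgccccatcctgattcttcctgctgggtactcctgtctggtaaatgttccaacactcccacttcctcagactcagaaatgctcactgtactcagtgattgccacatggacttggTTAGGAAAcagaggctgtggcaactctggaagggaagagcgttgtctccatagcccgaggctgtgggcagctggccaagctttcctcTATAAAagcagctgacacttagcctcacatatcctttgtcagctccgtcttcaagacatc
S100a9: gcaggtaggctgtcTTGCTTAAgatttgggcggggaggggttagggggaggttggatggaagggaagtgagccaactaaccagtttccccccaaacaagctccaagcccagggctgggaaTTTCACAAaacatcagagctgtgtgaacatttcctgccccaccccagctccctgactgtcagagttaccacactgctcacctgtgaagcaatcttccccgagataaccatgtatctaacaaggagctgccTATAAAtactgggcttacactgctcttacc
S100a4: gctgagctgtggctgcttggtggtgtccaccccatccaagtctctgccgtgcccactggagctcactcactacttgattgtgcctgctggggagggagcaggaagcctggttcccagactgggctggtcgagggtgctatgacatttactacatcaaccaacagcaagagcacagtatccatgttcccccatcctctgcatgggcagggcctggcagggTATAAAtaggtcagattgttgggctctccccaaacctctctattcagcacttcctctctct
S100a6: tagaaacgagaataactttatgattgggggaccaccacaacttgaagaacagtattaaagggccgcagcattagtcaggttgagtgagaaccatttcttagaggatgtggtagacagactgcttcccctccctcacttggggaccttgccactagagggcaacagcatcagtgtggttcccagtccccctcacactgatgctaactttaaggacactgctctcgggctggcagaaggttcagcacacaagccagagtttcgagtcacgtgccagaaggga

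The windows are chr3:90668821-90669100 (plus strand) for S100a8, chr3:90695692-90695971 (minus) for S100a9, chr3:90603520-90603799 (plus) for S100a4 and chr3:90612644-90612923 (plus) for S100a6. TATAAA, searched on the gene's strand, was found once each in S100a8, S100a9 and S100a4 and not in S100a6 or S100a11 (chr3:93520246-93520525). It began at base 221, 251 and 220 of the window, in S100a9 thus past the 250 bases before the annotated start. It is in 8.02% of 32851 RefSeq windows of the same length. TTNNGNAA, searched on both strands, was found 1 time in S100a8, 2 times in S100a9 and in none of S100a4, S100a6 and S100a11, against 39.3% of all windows. GGGCGG, also on both strands, was found 1 time in S100a9 and 3 times in S100a11, and is in 34.7% of windows. These are letter matches only, and S100a10 had no window.

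S100a8 and S100a9 were neutrophil transcripts at every stage, and between them made up a large share of all RNA counted. S100a8 was at 190979 CPM in immature neutrophils of naive BM, 181021 on day 2 and 198288 on day 7. S100a9 was at 191792, 155252 and 211568 CPM in the same cells. Together they were 38.3%, 33.6% and 41.0% of the UMIs of immature neutrophils, and 13.4%, 11.8% and 29.3% of those of the whole library. The D7 CTX library thus held over 2 times the naive share of S100a8 and S100a9 RNA, while the level within each neutrophil class moved far less. In bulk sums of this kind more cells of a class and more RNA per cell cannot be told apart, and here the cells were counted too: neutrophil precursors were 10.3% of kept cells in naive, 4.44% on day 2 and 27.3% on day 7, and immature neutrophils 17.6%, 16.3% and 33.5%. Precursors held 42.3%, 30.4% and 45.9% of all S100a8 UMIs in the 3 libraries. The Ly6c2-high monocytes held 0.284%, 0.369% and 0.281%.

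**Figure D1:**
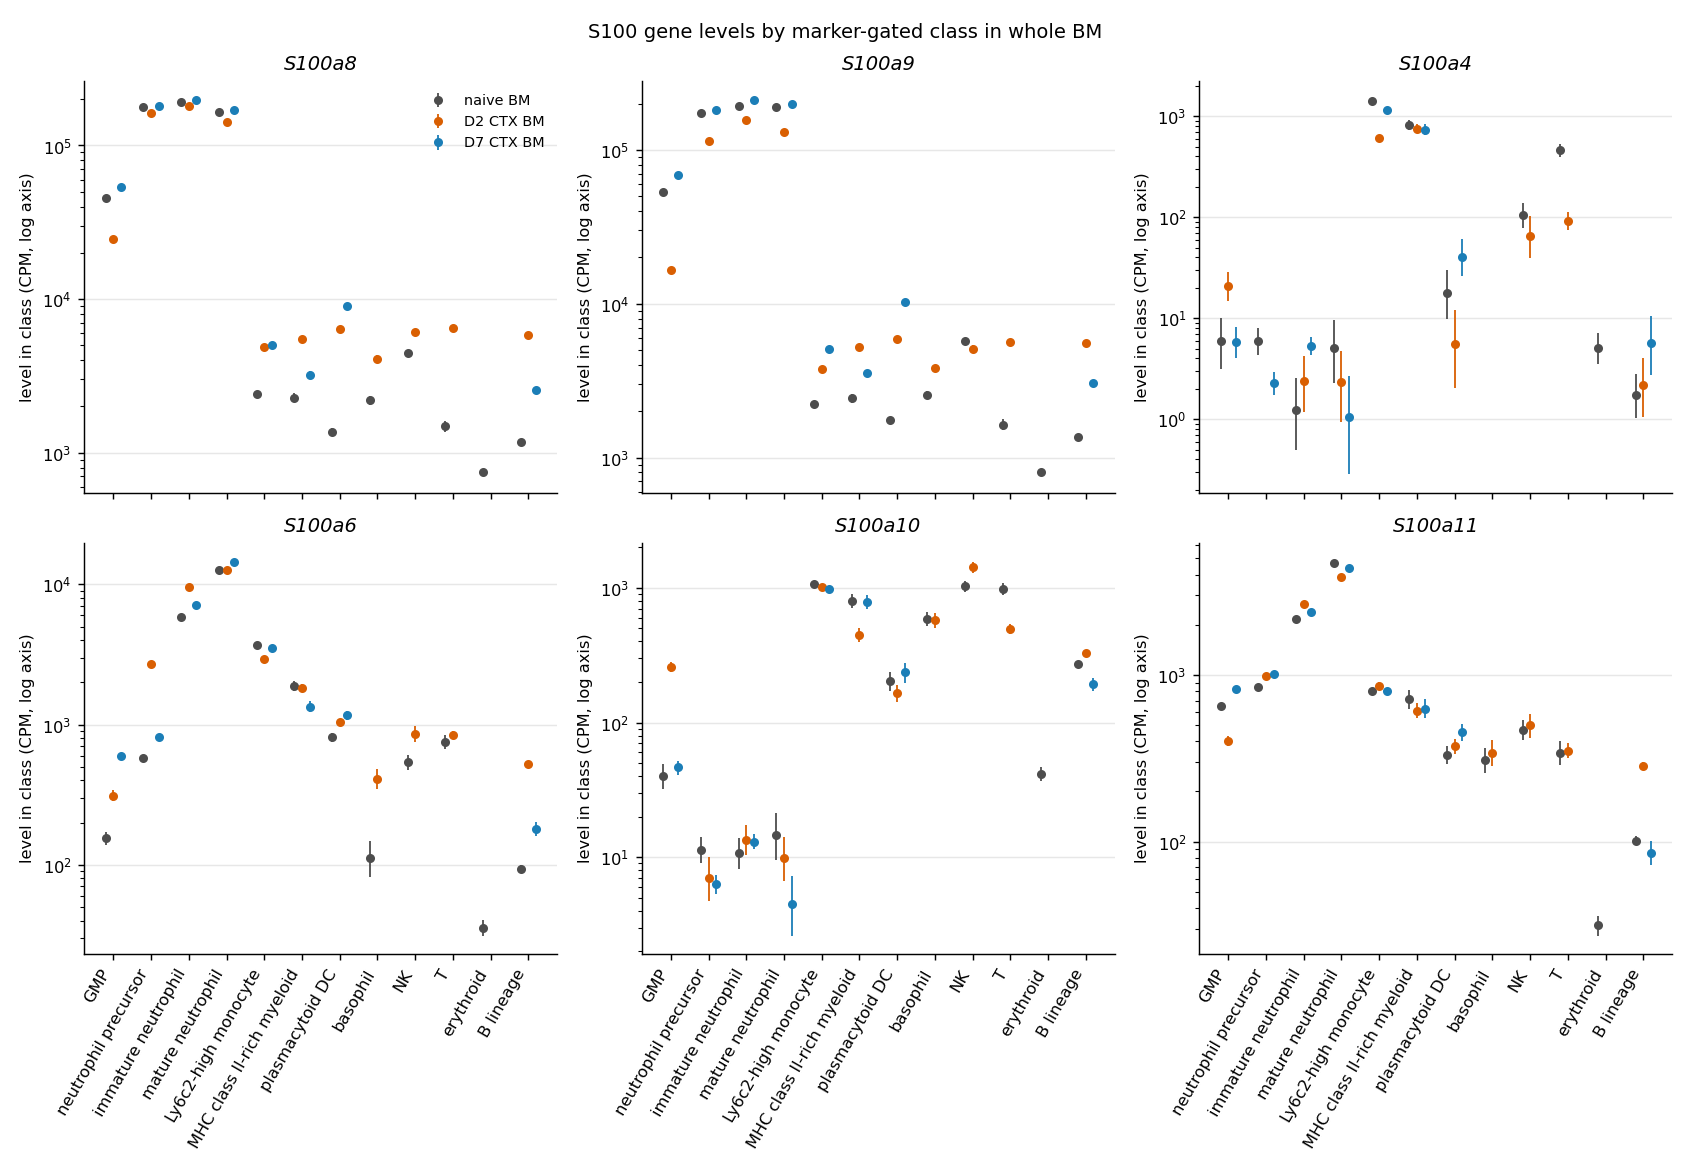
Level of each S100 gene (CPM, log axis) in marker-gated classes of the 3 whole BM libraries, 1 point a library. Classes under 50 cells and values of 0 UMIs are left out. S100a8 and S100a9 sit at or above 114270.0 CPM in the 3 neutrophil classes past the GMP stage, S100a4 and S100a10 sit at or under 15 CPM there, and S100a6 and S100a11 lie between.

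The summed level of the pair was already high in the granulocyte-monocyte progenitor (GMP) class. Its marker list holds azurophil granule genes, and cells that also passed a neutrophil list were left in it, so it may include later cells. S100a8 in GMP was at 45289 CPM in naive, 24532 on day 2 and 53600.0 on day 7. S100a9 in GMP was at 53259, 16444 and 68340.3 CPM. Both were lowest on day 2, when GMP were only 53 cells against 189 and 532. Thinned to 1000 UMIs, an S100a8 UMI was found in 84.5% of naive GMP, 67.9% (53.7 to 80.1) on day 2 and 92.9% on day 7. B lineage cells had 54.7%, 86.7% and 63.0%, so on day 2 the GMP share was the lower. GMP with no S100a8 UMI at that depth were found beside these high sums, so the level was uneven over the GMP. In precursors S100a8 was at 177972, 163029 and 181932 CPM, and in mature neutrophils at 163997, 142918 and 171086 CPM. S100a9 was at 172550.0, 114270.0 and 180864 CPM in precursors and 190738, 131610.0 and 197558 CPM in mature neutrophils. In every neutrophil class the D2 CTX library had the lowest level of both genes, and S100a9 was lower there by more than S100a8.

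The number of S100a9 UMIs per S100a8 UMI puts that difference in 1 value. In precursors it was 0.970 (0.967 to 0.972) in naive, 0.701 (0.698 to 0.704) on day 2 and 0.994 (0.993 to 0.995) on day 7. In immature neutrophils it was 1.004, 0.858 and 1.07, in mature neutrophils 1.16, 0.921 and 1.15, and in GMP 1.18, 0.670 and 1.28. Naive and D7 CTX values lay close together in each class, and the D2 CTX value was below both in all 4. Within each whole BM library the ratio was higher in mature neutrophils than in precursors. B lineage cells, which are not known to make either protein and serve here as the measure of free RNA, had ratios of 1.16, 0.957 and 1.20, near those of mature neutrophils of the same library at 1.16, 0.921 and 1.15. The ratio is of UMIs and is not scaled for transcript length.

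**Figure D2:**
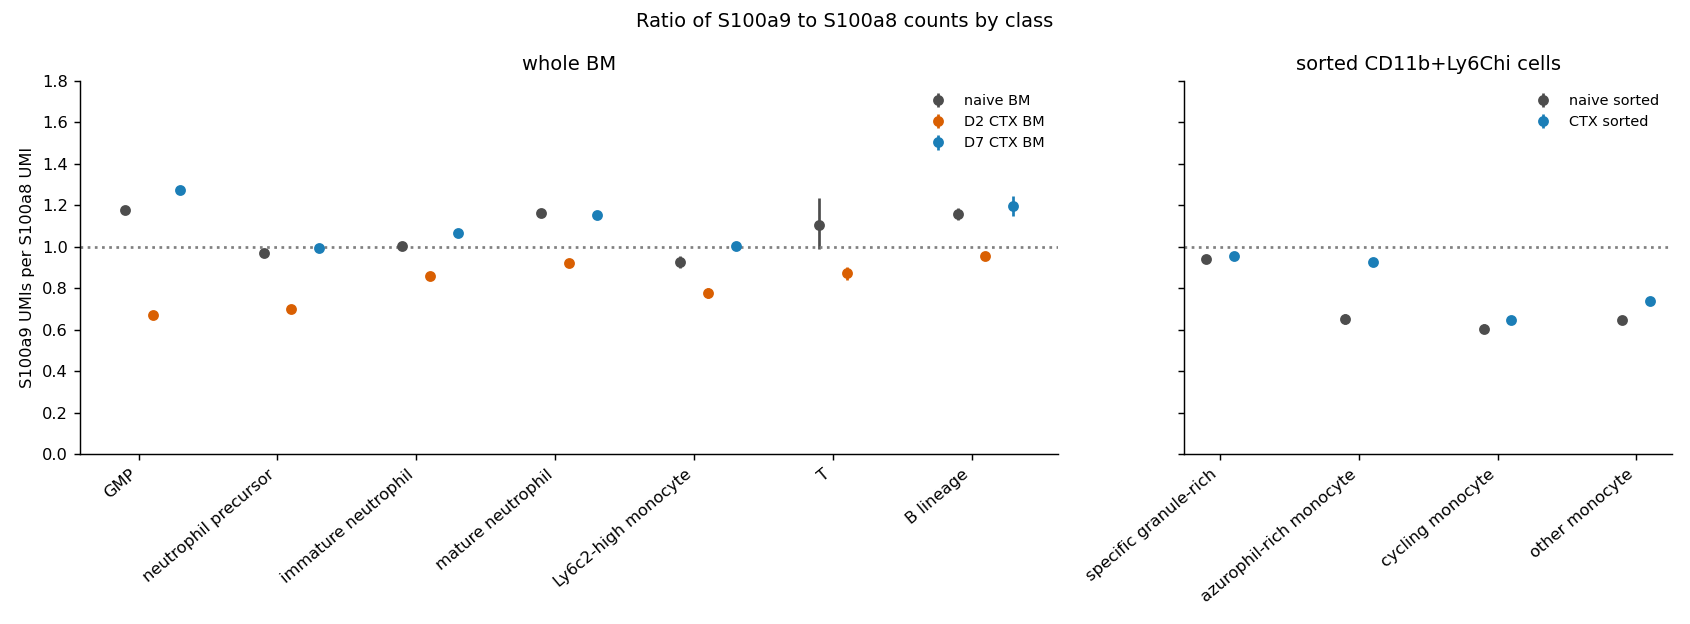
Ratio of S100a9 to S100a8 UMIs (linear axis from 0) by class, with exact 95% intervals of counting error, for whole BM and sorted libraries. The D2 CTX BM points lie under the naive and D7 CTX points in GMP and in all 3 neutrophil classes, and the azurophil-rich sorted monocytes go from 0.652 in naive to 0.926 in CTX.

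S100a6 and S100a11 were low early and high late in the neutrophil series, where S100a8 and S100a9 were high from precursors on. S100a6 in naive BM was at 155 CPM in GMP, 577 in precursors, 5811 in immature and 12557 in mature neutrophils. In D7 CTX BM the same order was 601, 819.6, 7070.1 and 14421 CPM, and in D2 CTX 312, 2697, 9562 and 12576 CPM. The steps between neighbouring classes were beyond counting error in all 3 libraries. S100a11 was at 647, 843, 2179 and 4693 CPM over the same 4 classes of naive BM, at 401, 991, 2668 and 3874 on day 2 and at 824, 1013, 2381 and 4378 on day 7. The log2 ratio of mature neutrophils over precursors was 4.44 (4.40 to 4.49) for S100a6 and 2.48 (2.43 to 2.52) for S100a11 in naive BM. It was -0.12 for S100a8 and 0.14 for S100a9.

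A gene was counted as past the fold when its log2 ratio with 1 CPM added reached 1 either way, among genes with at least 200 UMIs over the pair and 20 CPM in 1 of them. Between mature neutrophils and precursors, 2 of the 4 members that passed this filter (S100a6 and S100a11) were past the fold in each library, all higher in mature cells, where 52.6% of genes were past it in naive, 51.0% on day 2 and 42.4% on day 7. The members' share was thus close to that of all genes. In D2 CTX BM the direction depends on the scale: mature neutrophils there had a median of 1703 UMIs a cell and precursors 13916, and per cell S100a6 and S100a11 were lower in mature cells, with log2 ratios of -0.58 and -0.84. In naive and D7 CTX BM S100a11 was at 0.33 and 0.80 per cell. Anxa2, which encodes the annexin A2 that partners S100A10, was at 212 CPM in precursors and 1173 in mature neutrophils of naive BM. Anxa1, the partner of S100A11, was highest in immature neutrophils, at 5173 CPM in naive, 4424 on day 2 and 6017 on day 7.

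**Figure D3:**
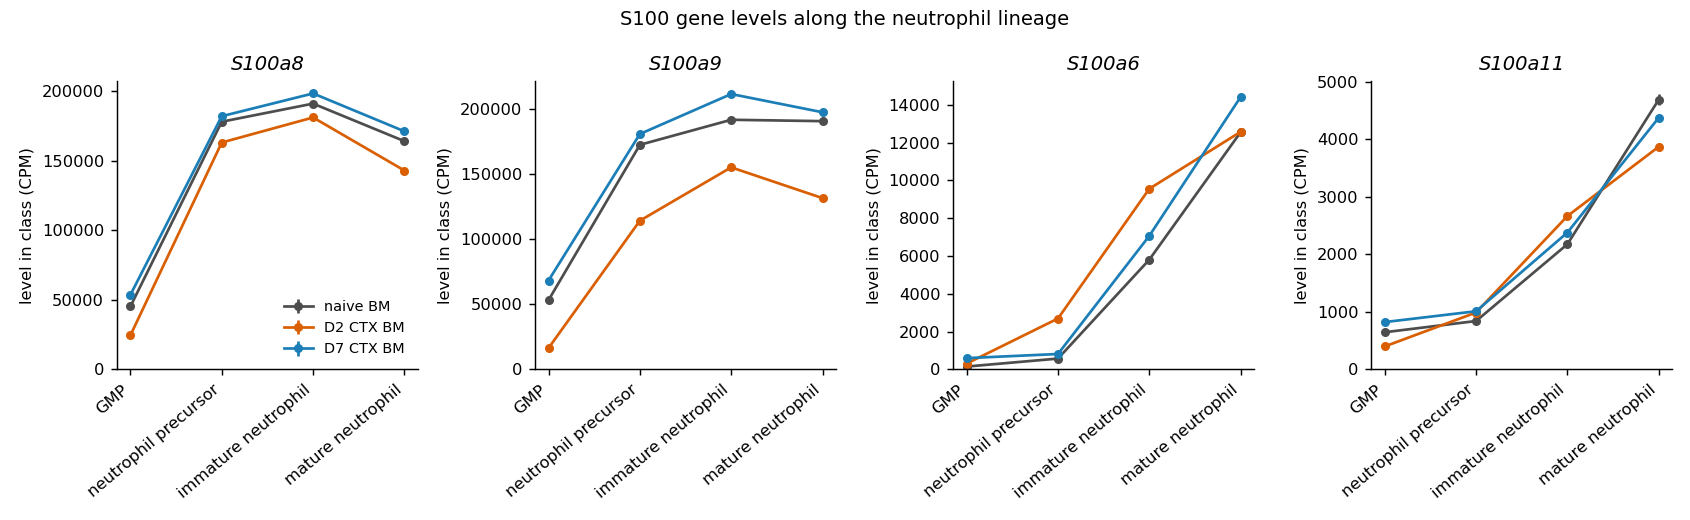
Levels of S100a8, S100a9, S100a6 and S100a11 (CPM) from GMP through precursor and immature to mature neutrophils, 1 line a whole BM library. S100a6 climbs from 155 to 12557 CPM in naive BM, and in precursors the D2 CTX point (2697 CPM) lies above those of naive and D7 CTX BM (577 and 819.6 CPM).

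S100a4 and S100a10 were near 0 in the neutrophil classes and were found in monocytes, T cells and NK cells. S100a4 was at 1415 (95% interval 1376 to 1454) CPM in Ly6c2-high monocytes of naive BM, 614 (95% interval 577 to 653) on day 2 and 1146 (95% interval 1118 to 1175) on day 7. MHC class II-rich myeloid cells had 816, 755 and 737 CPM, and naive T and NK cells 458 and 105. The 3 neutrophil classes had at most 5.93 CPM in any library, and the 272 precursors of D2 CTX BM had 0 UMIs, which allows up to 0.730 CPM. Here and below, the limit given for 0 UMIs is the CPM of 3 UMIs, not an exact Poisson limit. Ly6c2-high monocytes held 80.3% of all S100a4 UMIs of naive BM, 42.5% on day 2 and 80.2% on day 7, and were 6.64%, 1.94% and 8.08% of the cells. The next member by this share was S100a10, with 37.3%, 20.2% and 55.6%. B lineage cells had 1.76, 2.19 and 5.68 CPM of S100a4.

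S100a10 was spread over more lineages. In naive BM it was at 1073 CPM in Ly6c2-high monocytes, 1024 in NK cells, 975 in T cells, 804 in MHC class II-rich myeloid cells, 589 in basophils and 271 in B lineage cells. Counting intervals of the first 3 overlapped, since NK cells gave 486 and T cells 392 UMIs. In the neutrophil classes it was at 4.50 to 14.6 CPM over the 3 libraries. Of the 6 members, S100a4 and S100a10 were past the fold upwards and the other 4 downwards between Ly6c2-high monocytes and mature neutrophils in all 3 libraries. This is all 6 members tested, beside 61.9% of genes in naive, 58.4% on day 2 and 57.9% on day 7. Mature neutrophils were shallower, and for S100a6 and S100a11 the direction depends on the scale. In D2 CTX BM, monocytes were 1.94% of cells and held 4.05% of S100a6 and 3.74% of S100a11 UMIs. Mature neutrophils were 22.8% and held 31.5% and 30.6%, so per cell monocytes had more of both. Per cell, S100a6 was about level in naive BM, and the rest (S100a11 in naive, both on day 7) stayed lower in monocytes. Ahnak encodes a large scaffold that binds the S100A10 and annexin A2 complex. Its distribution was like that of S100a10, at 828 CPM in Ly6c2-high monocytes, 655 in NK cells and 2.24 in mature neutrophils of naive BM.

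S100a6 and S100a11 were the members shared by monocytes and neutrophils. S100a6 in Ly6c2-high monocytes was at 3665 CPM in naive, 2917 on day 2 and 3520.1 on day 7, between its levels in precursors and immature neutrophils of naive BM. S100a11 in the same cells was at 803, 856 and 802 CPM, a spread within counting intervals that overlap for naive with each of the others. S100a6 in B lineage cells was 93.6, 521 and 180.1 CPM and S100a11 101, 286 and 85.8.

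The levels of S100a8 and S100a9 in monocytes were near those in B lineage cells. S100a8 in Ly6c2-high monocytes was at 2402 CPM in naive, 4850.4 on day 2 and 5044 on day 7, beside 1174, 5822 and 2569.9 CPM in B lineage cells. In D2 CTX BM the monocytes thus had less by CPM than the B lineage cells (log2 ratio -0.26, -0.30 to -0.23), and T cells of that library had 6480.4 CPM. Per cell the monocytes had more S100a8 UMIs in each library. The counts were 8679 over 472 monocytes against 11355 over 1935 B lineage cells in naive BM. They were 8124 over 119 against 26608 over 1630 on day 2, and 27298 over 670 against 4523 over 186 on day 7. With each cell thinned to 1000 UMIs, an S100a8 UMI was found in 51.4% (46.8 to 56.0) of monocytes and 54.7% (52.4 to 56.9) of B lineage cells of naive BM, in 78.8% and 86.7% on day 2 and in 67.2% (63.5 to 70.8) and 63.0% (55.6 to 70.0) on day 7. At equal depth the share of monocytes was thus not above that of B lineage cells in naive and D2 CTX BM, and on day 7 the intervals overlapped, while the naive CPM was 2.05 times that of B lineage cells. No order is read from the shares, and the part of free RNA in the monocyte level was not tested. Unthinned, the naive shares were 94.1% of monocytes (median depth 6499 UMIs) and 90.03% of B lineage cells (2770.0 UMIs). For S100a4 the same comparison separated the classes, with 71.3%, 46.6% and 68.0% of monocytes against 0.313%, 0.374% and 0.543% of B lineage cells.

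Other non-granulocyte classes had like levels. On day 2, S100a8 was at 6480.4 CPM in T cells, 6093 in NK cells, 6355 in plasmacytoid dendritic cells, 4099.9 in basophils and 9113 in macrophages. In naive BM it was at 1483 CPM in T cells, 4482 in NK cells, 1368 in plasmacytoid dendritic cells, 2193 in basophils and 749 in erythroid cells. The level in Ly6c2-high monocytes thus lay within the range of the non-granulocyte classes in both libraries. S100a4, by contrast, had 0 UMIs in the basophils of both, which allows up to 6.96 CPM in naive and 8.04 on day 2, and 17.8 and 5.56 CPM in plasmacytoid dendritic cells. S100a6 was at 751, 537, 811 and 111 CPM in T, NK, plasmacytoid dendritic cells and basophils of naive BM, and S100a11 at 341, 468, 330.1 and 309. Apart from S100a6 in basophils, whose interval held the B lineage level, both were above their naive B lineage levels in each of these classes.

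Few monocytes carried most of the pair's UMIs. The median Ly6c2-high monocyte had 4 S100a8 UMIs in naive, 12 on day 2 and 8 on day 7, where the means were 18.4, 68.3 and 40.7. The 5% of cells with the most held 72.9%, 60.3% and 71.1% of the UMIs. The other members were spread evenly, with 13.02% of S100a6, 14.02% of S100a4, 16.2% of S100a11 and 20.2% of S100a10 UMIs in the top 5% of naive monocytes. The genes listed as specific granule genes (Ngp, Camp, Ltf, Lcn2, Cd177, Ly6g and Mmp8) were all above 0 in the same monocytes. Their summed level was 609, 1089.6 and 1076 CPM in naive, D2 CTX and D7 CTX, and 259, 608 and 801 CPM in B lineage cells. Their part in the S100a8 and S100a9 values was not tested.

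After CTX the 6 members differed in direction within the monocyte class. At day 2, S100a8 in Ly6c2-high monocytes was 2.02 times its naive level (log2 ratio 1.01, 0.97 to 1.06), S100a9 1.69 times (0.76, 0.71 to 0.81) and S100a4 0.434 times (-1.20, -1.30 to -1.11). S100a6, S100a10 and S100a11 had log2 ratios of -0.33, -0.09 and 0.09. Thus 1 member (S100a8) was past the fold upwards and 1 (S100a4) downwards of 6 tested, where 3.86% of genes were past it. With cells of a second lineage kept, S100a8 was at 0.41 and no longer past it, and it was further from naive with gates at 2 times the marker UMIs (1.79), without the highest Scrublet scores (1.93) and per cell (1.89). S100a9 was at 0.12, 1.28, 1.87 and 1.64 in the same order. In B lineage cells both genes were higher against naive by more than in these monocytes, as given below. Less the B lineage level of each library, neither gene had a ratio, since at day 2 the B lineage level was the higher. S100a4 also had a lower share of thinned monocytes with a UMI at day 2 (46.6%, 37.4 to 56.0) than in naive BM (71.3%, 67.0 to 75.4). Per cell the difference was smaller: the mean was 10.8 UMIs in naive and 8.65 in D2 CTX, a log2 ratio of -0.33, and with gates at 2 times the marker UMIs the log2 ratio of CPM was -0.86, so the gene was past the fold in neither.

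At day 7, S100a8 and S100a9 in Ly6c2-high monocytes were 2.10 and 2.28 times naive (log2 ratios 1.07, 1.04 to 1.11 and 1.19, 1.15 to 1.22), and S100a4 was nearer to naive at -0.30 (-0.36 to -0.25). S100a6, S100a10 and S100a11 had log2 ratios of -0.06, -0.13 and -0.00. The 2 members past the fold of 6 compare with 0.617% of genes. B lineage cells had like ratios: S100a8 there was 2.19 times naive and S100a9 2.26 times at day 7. With gates at 2 times the marker UMIs, the monocyte log2 ratios were 0.55 and 0.42, and as a mean of per-cell CPM 0.90 and 0.93, not past the fold. Without the highest Scrublet scores they were 1.66 and 1.90, and less the B lineage level of each library 1.01 and 1.21. In CPM, no monocyte level of the pair stood apart from the B lineage cells of its own library by more than a factor of 2.05. Counted as UMIs per cell, naive and D2 CTX monocytes stood further above B lineage cells than this.

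**Figure D4:**
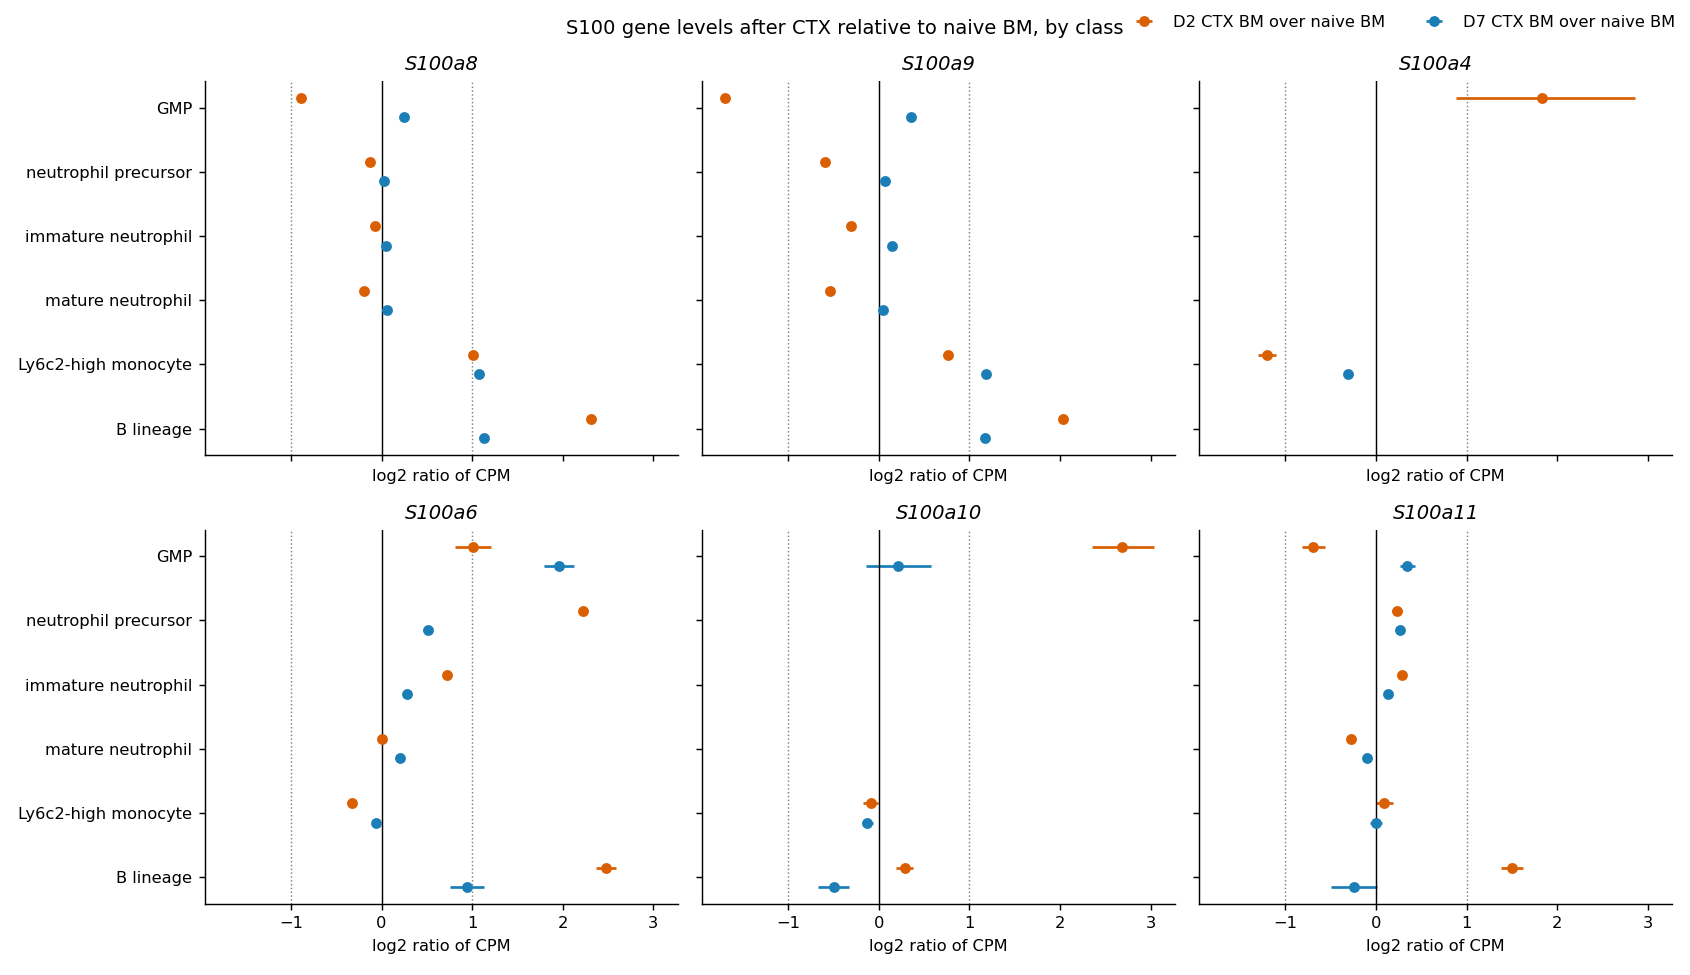
Log2 ratio of CPM after CTX over naive BM for each S100 gene and class, D2 and D7, with exact 95% intervals of counting error; dotted lines mark a log2 ratio of 1 either way, and points with both levels under 20 CPM are left out. B lineage cells lie to the right of 0 with S100a8 and S100a9 at both days, S100a4 in Ly6c2-high monocytes lies to the left at day 2 (-1.20), and S100a6 in precursors to the right (2.23).

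In B lineage cells at day 2, 4 of 5 members tested were past the fold, all upwards (S100a8 2.31, S100a9 2.03, S100a6 2.48 and S100a11 1.5 on the log2 scale), where 18.3% of genes were. S100a10 was at 0.29. At day 7, 2 of 5 (S100a8 and S100a9) were, beside 3.65% of genes. These 4 genes are the members that neutrophils carried, and their part in free RNA of the library was not tested. In T cells at day 2, S100a8 and S100a9 were higher (2.13 and 1.79) and S100a4 was lower, at 458 CPM in naive and 92.0 in D2 CTX (-2.31, -2.69 to -1.95), from 184 and 93 UMIs. These 3 of 6 compare with 3.68% of genes. S100a10 in T cells was 975 CPM in naive and 493 in D2 CTX (-0.99, -1.18 to -0.79), and S100a6 and S100a11 had log2 ratios of 0.16 and 0.04.

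The difference in S100a6 in precursors at day 2 was seen in most cells. It was at 577 CPM in naive, 2697 (95% interval 2647 to 2748) on day 2 and 819.6 on day 7, 4.68 times naive at day 2 (log2 ratio 2.23, 2.17 to 2.28) and 1.42 times at day 7. The median precursor had 1 UMI in naive, 29.5 on day 2 and 1 on day 7, and thinned to 1000 UMIs a UMI was found in 29.2% (26.0 to 32.7), 78.5% (73.1 to 83.3) and 32.6% (30.7 to 34.6) of cells. B lineage cells of the 3 libraries had 5.84%, 27.8% and 4.35%. S100a6 was the 1 member of 4 tested past the fold in precursors at day 2, beside 5.85% of genes, and 0 of 4 were at day 7, beside 0.792%. Precursors were 272 cells at day 2 against 733 and 2267, and they were deeper, with a median of 13916 UMIs against 9450 and 10235. Within 25% of the cut-off of the precursor list lay 729 cells in naive, 136 on day 2 and 1064 on day 7, and with gates at 2 times the marker UMIs the log2 ratio at day 2 was 3.65.

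In immature neutrophils no member of 4 tested was past the fold at day 2 or day 7, beside 4.69% and 1.18% of genes, and none was in mature neutrophils, beside 5.45% and 4.47%. S100a6 in immature neutrophils came nearest, at 0.72 on the log2 scale at day 2. The median log2 ratio of all genes at day 2 was 0.26 in immature and 0.36 in mature neutrophils, so S100a9 (-0.30 and -0.54) was lower still against the other genes of these cells.

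GMP at day 2 had members past the fold in both directions. S100a9 was at -1.70 on the log2 scale against naive, S100a8 at -0.88 and S100a11 at -0.69. S100a6 was at 1.01 (0.81 to 1.21) and S100a10 at 2.69 (2.36 to 3.03), from 88 UMIs in naive and 467 in D2 CTX. Of 5 members tested 2 were past the fold upwards (S100a6 and S100a10) and 1 downwards (S100a9), where 8.49% of genes were past it. Both levels in these GMP, 312 CPM of S100a6 and 258 of S100a10, were below those of B lineage cells of the library, 521 and 331 CPM. The D2 CTX GMP were 53 cells with a median of 31216 UMIs against 11536 in naive BM. With all gates at 2 times the marker UMIs the class held 23 cells. As a mean of per-cell CPM S100a6 was at -0.13 on the log2 scale. Per cell, S100a9 was at -0.14. At day 7, S100a6 alone of 5 was past the fold (1.96, 1.79 to 2.12), beside 1.59% of genes. That difference also rested on few cells, since the median was 0 UMIs a cell and 62.8% of S100a6 UMIs of D7 CTX GMP were in 5% of them, and as a mean of per-cell CPM it was at 0.81.

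The sorted monocytes give a deeper view of the same genes, and were divided into azurophil-rich cells (azurophil granule genes Mpo, Elane, Prtn3 and Ctsg; 211 naive and 400 CTX cells), cycling cells (350 and 544), specific granule-rich cells (22 and 59), MHC class II-rich cells (27 and 15) and the other monocytes (1281 and 1546). S100a8 was at 1805 CPM in azurophil-rich, 1267 in cycling and 859 in other monocytes of naive mice, and at 3788, 1660.0 and 1332 CPM after CTX. S100a9 was at 1178, 767 and 554 CPM in naive and 3508, 1077 and 981 after CTX. Both genes were highest in azurophil-rich cells in both libraries, and higher after CTX in each of the 3 classes. The specific granule-rich cells, with 204753 and 174165 CPM of S100a8, were at the level of neutrophils and held 57.9% and 60.5% of all S100a8 UMIs of the 2 sorted libraries. They are left out of the values that follow.

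S100a4 and S100a6 ran the other way, and S100a10 was lowest in other monocytes. S100a4 was at 372 (95% interval 353 to 391) CPM in azurophil-rich, 673 (95% interval 652 to 695) in cycling and 974 (95% interval 956 to 992) in other monocytes of naive mice, and at 305, 706 and 1106 after CTX. S100a6 was at 2085, 2983 and 3826 CPM in naive and 1773, 2821 and 3932 after CTX. S100a10 was at 1526, 1414 and 908 CPM in naive and 1196, 1327 and 925 after CTX. The order of the 3 classes was opposite for S100a4 and S100a8 in both libraries, with no overlap of counting intervals. S100a11 differed less, at 517, 714 and 758 CPM in naive and 511, 696 and 769 after CTX.

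The log2 ratio of azurophil-rich over other monocytes in naive mice was 1.07 (1.03 to 1.11) for S100a8, 1.09 (1.03 to 1.14) for S100a9, 0.75 (0.70 to 0.79) for S100a10, -0.55 (-0.62 to -0.48) for S100a11, -0.88 (-0.91 to -0.84) for S100a6 and -1.39 (-1.47 to -1.31) for S100a4. After CTX it was 1.51, 1.84, 0.37, -0.59, -1.15 and -1.86 in the same order. Past the fold were 3 of 6 members in naive (S100a8 and S100a9 upwards, S100a4 downwards), beside 17.6% of genes, and 4 of 6 after CTX, with S100a6 added downwards, beside 17.8%. The azurophil-rich cells were deeper, at medians of 19204 and 16504 UMIs against 9411 and 8705 in other monocytes, and per cell S100a4 differed less: 6.96 against 9.25 UMIs in naive, a log2 ratio of -0.41, and -0.96 after CTX, where S100a6 was at -0.25. As a mean of per-cell CPM, S100a8 and S100a9 in naive were at 0.68 and 0.37. Thinned to 2000 UMIs, S100a4 was found in 46.6% (39.6 to 53.7) of azurophil-rich and 81.7% (79.5 to 83.8) of other monocytes in naive and in 39.1% and 84.0% after CTX. The share kept the order of the CPM.

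Between the 2 sorted libraries, the difference was in S100a8 and S100a9, and of the 3 classes it was largest in azurophil-rich cells. The log2 ratio of CTX over naive was 1.07 (1.03 to 1.11) for S100a8 and 1.57 (1.53 to 1.62) for S100a9 there, 0.39 and 0.49 in cycling cells and 0.63 and 0.82 in other monocytes. The other 4 members had log2 ratios from -0.35 (S100a10 in azurophil-rich cells) to 0.18 (S100a4 in other monocytes). In azurophil-rich cells 2 of 6 members (S100a8 and S100a9) were past the fold, beside 0.602% of genes; 0 of 6 were in cycling cells, beside 0.546%, and 0 of 6 in other monocytes, beside 0.833%. Per cell, S100a8 in azurophil-rich monocytes was at 0.88 on the log2 scale. The share of azurophil-rich cells with an S100a8 UMI at 2000 UMIs was 43.2% (36.3 to 50.3) in naive and 54.5% (49.4 to 59.5) after CTX. No class of the sorted libraries could serve as a measure of free RNA, so these shares have no background beside them, and the specific granule-rich cells were 1.16% of naive and 2.30% of CTX sorted cells. The summed specific granule genes, all 7 above 0, were 118 CPM in naive and 159 after CTX in azurophil-rich cells and 350.1 and 338 in other monocytes, and the summed azurophil genes 7067 and 10174 CPM in azurophil-rich cells. Their part in the difference was not tested.

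**Figure D5:**
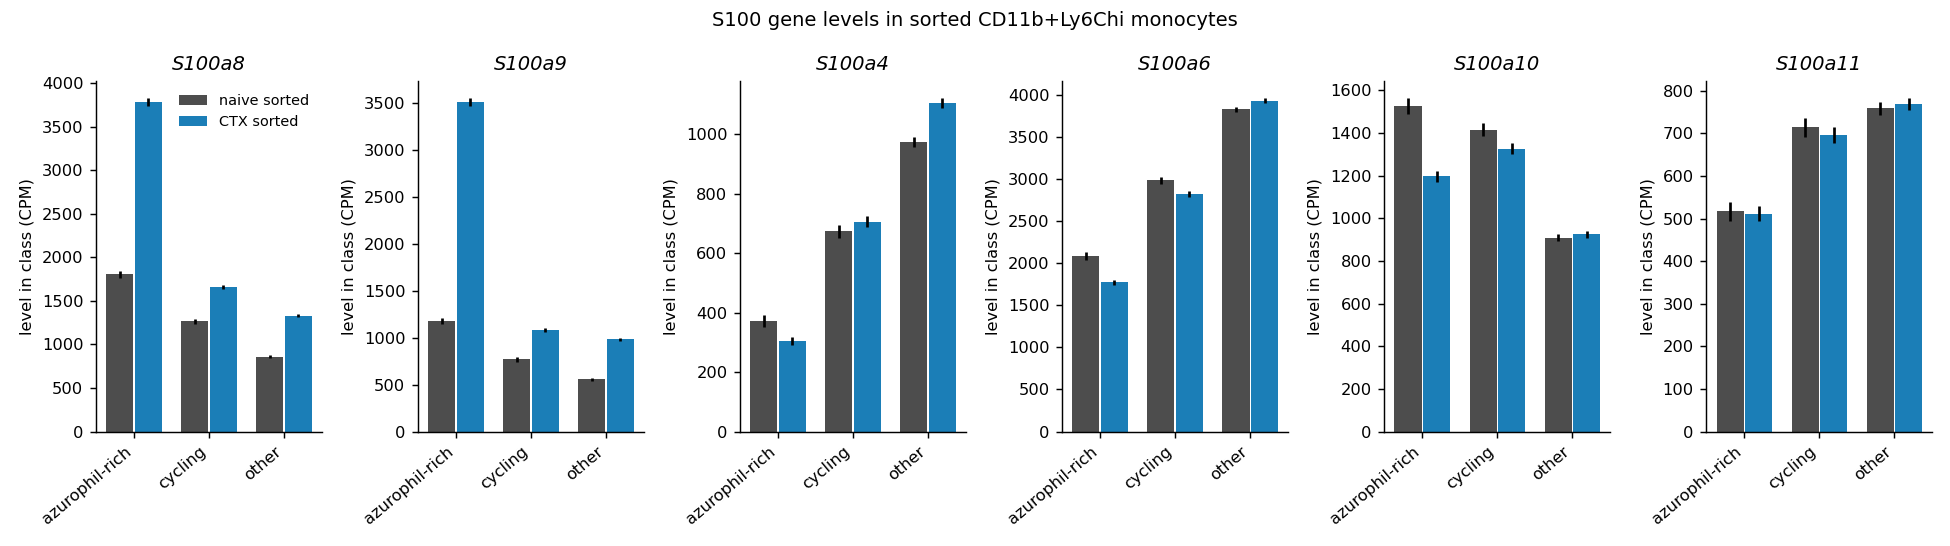
Level of each S100 gene (CPM, bars on a linear axis) in azurophil-rich, cycling and other sorted monocytes of naive and CTX-treated mice, with exact 95% intervals of counting error. S100a8 and S100a9 are highest in azurophil-rich cells and higher in CTX than in naive in each class, and S100a4 is lowest in azurophil-rich cells (372 and 305 CPM).

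Among sorted monocytes, too, a few cells carried most of the pair. The median other monocyte had 1 S100a8 UMI in naive and 1 after CTX, and 0 S100a9 UMIs in both, beside 35 and 34 S100a6 and 9 and 9 S100a4 UMIs. The top 5% of these cells held 80.7% and 72.8% of S100a8 UMIs and 93.9% and 88.4% of S100a9 UMIs. In azurophil-rich cells the top 5% held 44.3% and 43.0% of S100a8. The ratio of S100a9 to S100a8 UMIs was 0.645 in other, 0.606 in cycling and 0.652 in azurophil-rich monocytes of naive mice and 0.737, 0.649 and 0.926 after CTX, under the 0.942 and 0.957 of the specific granule-rich cells. Without the 5% of cells with the most of the pair, it was 0.221 and 0.320 in other and 0.394 and 0.759 in azurophil-rich cells. Left out in the same way, the 3 neutrophil classes of whole BM had 0.700 (D2 CTX precursors) to 1.17 (naive mature neutrophils), above these values except that of azurophil-rich cells after CTX.

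Over single sorted cells thinned to 2000 UMIs, which share library and depth, S100a8 and S100a9 had a Spearman rho of 0.595 in naive and 0.613 after CTX, and 0.568 and 0.577 over the 1785 and 2424 cells of the 3 main classes. Over those same cells S100a4 and the summed azurophil genes had -0.239 and -0.334, S100a6 and the azurophil genes -0.199 and -0.305, and S100a10 and the azurophil genes 0.298 and 0.177. The signs are those of the class levels. Apart from the S100a8 and S100a9 pair, these values are weak.

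Over the 39 library-by-class levels with at least 50 cells, which share libraries, each member's closest other member by log2(CPM + 1) gave 3 pairs. Pearson's r was 0.995 for S100a8 and S100a9, 0.869 for S100a6 and S100a11 and 0.735 for S100a4 and S100a10, and -0.838 for S100a8 and S100a10. Of 9950 genes, those most like S100a8 were Wfdc21 (0.979), Lcn2 (0.975) and Lrg1 (0.964), and those most like S100a9 were Wfdc21 (0.985), Chil1 (0.967) and Lcn2 (0.967). Lcn2 encodes lipocalin 2, a specific granule protein. S100a4 was most like Fam129b (0.909), Ms4a4c (0.908) and Ifi211 (0.895), and S100a6 most like Nadk (0.914), Cd300lb (0.908) and Svil (0.903). S100a10 was most like Tmsb10 (0.956), which encodes the actin-binding thymosin beta 10, Esyt1 (0.926) and Crip1 (0.924), and S100a11 most like Dhrs7 (0.9496), Mtus1 (0.895) and Pxn (0.893).

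Of 10 other S100 genes listed, 8 had 0 to 157 UMIs a library, and of the other 2 none was past the fold after CTX in any class. S100a1 in GMP was at 188 CPM in naive, 100.2 on day 2 and 202 on day 7, and was 6.72, 5.63 and 7.68 CPM in mature neutrophils. S100a13 was broad, at 291, 248 and 276 CPM in Ly6c2-high monocytes and 98.9, 82.7 and 86.4 in B lineage cells. S100z was at 0 in all 5 libraries, which allows up to 0.0442 CPM in the deepest, D7 CTX BM.

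Of the 5 listed binding partners, 3 to 5 passed the filter in the monocyte and neutrophil classes, and 0 were past the fold after CTX in Ly6c2-high monocytes (5 tested), precursors and immature neutrophils (4 tested) and mature neutrophils (3 tested) at either day, or in the 3 sorted classes (5 tested), beside the shares of all genes given above for each comparison. Anxa2 in GMP was past it at both days, at 43.3 CPM in naive, 95.2 on day 2 and 97.9 on day 7, as was Anxa1 in GMP at day 7, at 817 CPM against 311. These are 1 of 4 tested at day 2, beside 8.49% of genes, and 2 of 4 at day 7, beside 1.59%. Both were past it in B lineage cells at day 2, 2 of 5 tested beside 18.3%. Of 5 listed receptors for S100A8 and S100A9, 0 to 3 passed the filter in a comparison, and Cd14 was past the fold, upwards, in Ly6c2-high monocytes at day 2 (1 of 2 tested, beside 3.86% of genes), mature neutrophils at day 2 (1 of 1, beside 5.45%) and GMP at day 7 (1 of 2, beside 1.59%). Cd14, the co-receptor that hands ligands to TLR4, was at 54.0 CPM in Ly6c2-high monocytes in naive, 137 on day 2 and 80.7 on day 7, with a log2 ratio at day 2 of 1.34 (1.06 to 1.62). In other sorted monocytes Cd14 was at 231 CPM in naive and 116 after CTX (-0.995, -1.09 to -0.91). Tlr4 was at most 32.1 CPM in the neutrophil and monocyte classes and Ager at most 5.63 CPM in them.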

How the data were processed

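Mouse BM cells were profiled by 10x Genomics 3′ single-cell RNA-seq (V3). The submitters' processing notes name mm10, Cell Ranger 3.1 and Seurat 5.0. The deposited matrices hold raw UMI counts per gene and cell barcode, made by the authors and not normalized. For all 5 libraries the study states more cells than the matrices used here hold (7649, 6608 and 8605 barcodes in naive, D2 CTX and D7 CTX BM, 2223 and 2978 in the sorted libraries).

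The study's stated filter (at least 200 genes, under 20% mitochondrial UMIs) was applied. Cells were gated by the summed UMIs of a marker list per 10000 UMIs of the cell and by at least 3 markers detected (2 in sorted cells). Cells that passed lists of 2 lineages, or of both monocytes and granulocytes, were kept out of the classes, with some exceptions. Cells of another lineage, B lineage included, could also pass the MHC class II-rich or Ly6c2-low monocyte list. Plasmacytoid dendritic cells and macrophages could also pass the Ly6c2-high list. Cells that passed the B lineage and plasma lists were classed as plasma cells, and those that passed the GMP and a neutrophil list as GMP. Levels were sums over a class in CPM, shown for classes of at least 50 cells and, as the 1 exception, the specific granule-rich sorted cells. Shares of cells with a UMI were counted after thinning to 1000 (whole BM) or 2000 UMIs (sorted), with Clopper-Pearson intervals. No doublets were removed in the main values, and leaving out the cells with the highest Scrublet scores was an alternative. Alternatives also covered the scale, filters, gates and B lineage background, and 3 were added after seeing the data: UMIs per cell, keeping cells with markers of a second lineage, and leaving out the 5% of cells with the highest level.

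The text names the 6 members, the listed S100 genes, partners and receptors, and the 3 genes most like each member. The members and the lists were chosen with earlier results of these data known. Positions are from GENCODE M21 (GRCm38), and promoter windows from RefSeq (GRCm38.p6), which held 5 of the 6 members. The fold count was tested on simulated counts. Python 3.11.15, NumPy 2.4.6, SciPy 1.17.1, pandas 2.3.3, scanpy 1.11.5 and matplotlib 3.10.9 were used.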

Additional observations from a re-analysis of the deposited data

Results flagged for a closer look

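Among the 4 neutrophil and progenitor classes, the Ly6c2-high monocytes and the 3 main sorted classes, 9 pairs of member and comparison had a class with a counting interval above 0 and another with one below 0, with both levels at 20 CPM or more. With 1 library a condition, none of these differences was tested. Each is given, for the classes furthest apart, as the log2 ratio in the first class less that in the second.

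In D2 CTX over naive BM, S100a10 differed by 2.78 between GMP (2.69) and Ly6c2-high monocytes (-0.09), and S100a6 by 2.55 between precursors (2.23) and Ly6c2-high monocytes (-0.33). S100a9 differed by 2.45 between Ly6c2-high monocytes (0.76) and GMP (-1.70), and S100a8 by 1.90 between the same classes (1.01 and -0.88). The monocyte values of S100a8 and S100a9 stand beside B lineage values of 2.31 and 2.03. S100a11 differed by 0.98 between immature neutrophils (0.29) and GMP (-0.69). In D7 CTX over naive BM, S100a11 differed by 0.45 between GMP (0.35) and mature neutrophils (-0.10), and S100a6 differed by 2.01 between GMP (1.96) and Ly6c2-high monocytes (-0.06).

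In CTX over naive sorted monocytes, S100a4 differed by 0.47 between other (0.18) and azurophil-rich cells (-0.28), and S100a6 by 0.27 between the same classes (0.04 and -0.23).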

How the results depend on the processing

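No paired analysis was possible because each condition has 1 library. With no replicates a value is said to have moved when it left the counting interval of the reported one, which for genes of many UMIs is narrow, and the causes were not tested. Of the log2 ratios past the fold that were put through the alternatives, 3 changed sign under an alternative. As a mean over cells of per-cell CPM, S100a6 in GMP at D2 CTX over naive was -0.13, and per cell S100a6 and S100a11 in mature neutrophils over precursors of D2 CTX BM were -0.58 and -0.84. Ratios of B lineage cells and of monocytes over mature neutrophils were not put through the alternatives. In T cells only S100a4 at day 2 was. Counting UMIs per cell, keeping cells with markers of a second lineage and leaving out the 5% of cells with the highest level were chosen after seeing the data.

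S100a4 in Ly6c2-high monocytes at day 2 was -0.86 with gates at 2 times the marker UMIs, -0.33 per cell and -1.09 with second-lineage cells kept. S100a6 in precursors at day 2 was 1.99 without the 20 most abundant genes in the total, 1.98 with the median gene ratio as scale, 2.17 less the B lineage level, 3.65 with gates at 2 times, 2.32 without the highest Scrublet scores, 1.97 as mean per-cell CPM, 2.84 per cell, 2.32 with second-lineage cells kept and 2.57 without the top 5% of cells. At day 7 in Ly6c2-high monocytes, S100a8 and S100a9 were 1.14 and 1.254 by the median gene ratio, 0.55 and 0.42 with gates at 2 times, 1.66 and 1.90 without the highest Scrublet scores, 0.90 and 0.93 as mean per-cell CPM, 1.15 and 1.26 per cell, 1.32 and 1.34 with second-lineage cells kept, and 1.14 and 0.95 without the top 5%. S100a8 was 1.01 less the B lineage level. In sorted azurophil-rich cells S100a8 was 0.88 per cell, and S100a9 was 1.67 with gates at 2 times, 1.64 as mean per-cell CPM, 1.38 per cell and 2.17 without the top 5%.

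S100a6 in mature neutrophils over precursors of naive BM was 4.32 without the 20 genes, 4.61 by the median gene ratio, 4.69 less the B lineage level, 5.89 with gates at 2 times, 4.60 without the highest Scrublet scores, 4.05 as mean per-cell CPM, 2.30 per cell and 4.86 without the top 5%. S100a4 in azurophil-rich over other naive monocytes was -1.70 with gates at 2 times and -0.41 per cell. With gates at 2 times, S100a8 in naive, D2 CTX and D7 CTX BM was 1788, 6205 and 2627 CPM in Ly6c2-high monocytes and 2182, 6412 and 2464 in B lineage cells. With second-lineage cells kept it was 5579.7, 7433 and 13901 CPM in the monocytes and 7679, 15371 and 10965 in B lineage cells. Without the 20 most abundant genes S100a8 was at 90349, 86588 and 265004 CPM in whole BM and 3165 and 5882 in the naive and CTX sorted libraries.

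Ratios of S100a9 to S100a8 were 0.991 in D7 CTX precursors and 0.568 in naive cycling monocytes without the highest Scrublet scores. Without the top 5% of cells they were 0.221 in naive and 0.320 in CTX other monocytes, 0.278 and 0.481 in cycling and 0.394 and 0.759 in azurophil-rich cells. At 2000 UMIs, S100a8 was found in 68.2% of naive and 87.3% of D7 CTX Ly6c2-high monocytes, and at 4000 UMIs in 34.5% and 49.4% of naive and CTX other monocytes. With no filter on low genes 1492 genes were past the fold in Ly6c2-high monocytes at day 2, against 145, 291 against 32 at day 7, and 246 against 32 in sorted azurophil-rich cells, and over the 24 comparisons counts were 1.90 to 82.5 times those reported. With 0.1 CPM added, none moved beyond 1.5 times. B lineage subtraction gave no value for 5 ratios where the B lineage level was the higher. These were S100a8 and S100a9 in Ly6c2-high monocytes at day 2, S100a6 and S100a10 in GMP at day 2, and S100a10 in GMP at day 7.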

Other observations

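Cells of whole BM that passed both monocyte and granulocyte lists were kept out of every class: 45 in naive, 45 on day 2 and 130 on day 7. In D7 CTX these 130 cells had 45883 CPM of S100a8 with a median of 25.5 UMIs a cell, 436 CPM of S100a4 with a median of 4, and 844 CPM of S100a10. They thus held both S100a4 and S100a10, near 0 in neutrophils, and S100a8 between the monocyte (5044 CPM) and precursor (181932 CPM) levels. The cells with the highest Scrublet scores included 23 of these 45 naive cells, 10 of 45 on day 2 and 40 of 130 on day 7.

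Cells that passed no list (569, 518 and 573) had 2543, 1187 and 11638 CPM of S100a6 and 31463, 10357 and 114327 CPM of S100a8. In D7 CTX their S100a6 level lay between those of immature and mature neutrophils, and their S100a8 level was below those of precursors, immature and mature neutrophils.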
